A study of Mus musculus with 24 samples.

Results

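Lipogenesis and cholesterol synthesis were followed in mouse colon through 37 genes, out of 45616 gene names on the array. They were chosen by symbol and comprised Thrsp, the enzymes that build, elongate and desaturate fatty acids, enzymes of triglyceride assembly, enzymes of cholesterol synthesis, and the regulators of both pathways. A probe was assigned to a member when its transcript accession led to that symbol, and the brightest probe over the 24 arrays stood for the gene. All 37 members were found. The signal of 36 was well above the local background on every array, and that of Lpin1 was so on 22 arrays.

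Each of the 24 arrays held colon RNA of 1 C57BL/6J mouse, with 4 mice in each of 6 groups. M are males and F are females, both with sham surgery, F(OVX) are ovariectomized females, and each of these was fed LFD or HFD. The mice were 7 weeks old when purchased. LFD and HFD gave 10 and 45 kcal% of energy as fat and were fed for 14 weeks. Every group was also given the colon carcinogen azoxymethane (AOM, 10 mg/kg) and drank 1.5% dextran sulfate sodium (DSS), an agent that causes colitis, in 3 cycles, so no group shows the untreated colon. Animals were picked for a body weight close to the average of their group, and RNA came from distal colon with all its cell types. In such bulk RNA, fewer cells of a type and less RNA per cell cannot be told apart.

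Lipogenesis turns citrate into acetyl-CoA and then into palmitate, which is elongated, desaturated and joined to glycerol. Cholesterol is made from acetyl-CoA through mevalonate, isoprenoids, squalene and a series of sterols. The SREBP factors, encoded by Srebf1 and Srebf2, switch on genes of both pathways once Scap carries them from the endoplasmic reticulum, and Insig proteins hold Scap back when sterols are plentiful. Thrsp (thyroid hormone responsive, also called Spot 14) is a small nuclear protein of lipogenic tissues such as liver, fat and lactating mammary gland, where carbohydrate feeding and thyroid hormone raise its mRNA.

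Some arrays stood apart before any comparison. On M + LFD replicates 1 and 2, Hoxb13, a marker of the most distal colon, had log2 levels of 2.18 and 5.04, against 12.58 to 14.79 on the other 22 arrays, while the colonocyte gene Car1 stood at 17.18 and 16.55 against 11.59 to 14.69. Replicate 3 of F(OVX) + LFD and replicate 2 of F + HFD were dim, with a 75th percentile of the signal of 125 and 157 scanner units against 313 to 669 elsewhere. Markers of colonic epithelium were high throughout, with a mean log2 level between 14.04 and 14.84. Each sex or surgery lay on 1 slide of its own, with LFD in the first row and HFD in the second. Sex or surgery and slide cannot be told apart, nor can diet and slide row. The diet was compared within a slide on 8 arrays. A gene was called (a DEG) when its fold change reached 1.5 (0.58 on the log2 scale) and its unadjusted limma p was under 0.05. Adjusted p-values are those of Benjamini and Hochberg over all genes tested. The p-values measure the spread between these samples.

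Thrsp was lower under HFD in males and in ovariectomized females, and close between the diets in intact females. On the log2 scale of the normalized signal, its levels in M + LFD were 6.68, 6.69, 6.90 and 6.92, and in M + HFD 5.81, 5.96, 6.30 and 6.01. The groups did not overlap. The difference was -0.77 (SE 0.15, limma p = 0.000677, adjusted p = 0.801), and an exact permutation of the diets gave the smallest p that 4 against 4 allows, 0.0286. In F(OVX) + LFD the levels were 7.76, 7.46, 7.75 and 6.61, and in F(OVX) + HFD 6.05, 6.21, 7.07 and 6.37. Here the groups overlapped, because replicate 4 on LFD was low and replicate 3 on HFD was high. The difference was -0.97 (SE 0.31, limma p = 0.0126, adjusted p = 0.9996, exact permutation p = 0.0571). In F + LFD the levels were 6.99, 7.06, 6.72 and 7.62, and in F + HFD 7.39, 7.51, 6.44 and 7.24, a difference of 0.05 (SE 0.28, exact permutation p = 0.886). These groups overlapped over most of their range.

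The diet effects on Thrsp were also set against each other in 1 fit of all 24 arrays. The effect in F(OVX) was lower than in F (difference -1.02 on the log2 scale, SE 0.38, adjusted p = 0.9998), and that in M was lower than in F by a difference of -0.82 (SE 0.38, adjusted p = 0.975), both with an unadjusted p under 0.05. The M and F(OVX) effects differed by 0.20 (SE 0.38, adjusted p = 0.969). Averaged over the 3 slides, the effect was -0.57 (SE 0.16, adjusted p = 0.984), just short of the fold threshold. The fall in M held without M + LFD replicates 1 and 2 (-0.89, adjusted p = 0.926), and that in F(OVX) held without the dim F(OVX) + LFD replicate 3 (-0.85, adjusted p = 0.832). The contrast of M with F no longer passed an unadjusted p of 0.05 without the former arrays (-0.93, adjusted p = 0.999) or with the mean over its probes (-0.74). Nor did it with normexp correction (-0.45), with the Hoxb13 level as a covariate (-0.89), or in 11 of the 24 fits that left out 1 array. Over all 24 such fits this contrast ranged from -1.06 to -0.70. With normexp background correction the difference in M was -0.43 (adjusted p = 0.796), under the fold threshold. The study itself named Thrsp from these arrays, so its direction is not independent evidence. A second Thrsp probe was well above background on only 15 of the 24 arrays. It correlated with the first at r = 0.90 over the arrays and gave differences of -0.59 in M, 0.06 in F and -1.17 in F(OVX).

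**Figure D1:**
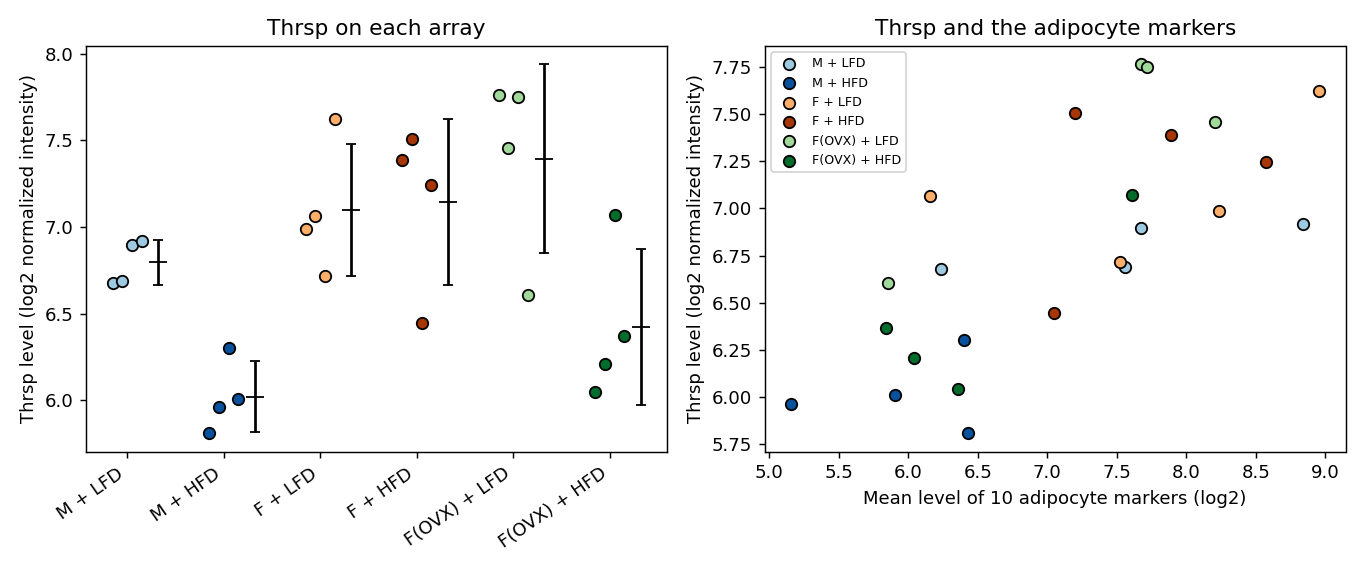
Left, log2 normalized level of Thrsp on each array, with the mean and SD of the 4 arrays of each group beside the points. The M + HFD points (5.81 to 6.30) lie below all M + LFD points (6.68 to 6.92). Right, the same Thrsp levels against the mean log2 level of 10 adipocyte markers on each array, where arrays low in one tend to be low in the other (r = 0.73, n = 24).

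By group, mean Thrsp was highest in F(OVX) + LFD (7.39 ± 0.54, SD, n = 4), followed by F + HFD (7.15 ± 0.48), F + LFD (7.10 ± 0.38), M + LFD (6.80 ± 0.13), F(OVX) + HFD (6.42 ± 0.45) and M + HFD (6.02 ± 0.21). Each neighbouring pair of groups in this order overlapped in its arrays, so the order between neighbours is within their spread. Fat cells also express Thrsp, and the mean of a list of adipocyte markers moved with it, though not every marker did. The mean level of 10 adipocyte markers ranged from 6.24 to 8.84 in M + LFD and from 5.16 to 6.43 in M + HFD. It ranged from 5.85 to 8.21 in F(OVX) + LFD, from 5.84 to 7.61 in F(OVX) + HFD, from 6.15 to 8.96 in F + LFD and from 7.05 to 8.58 in F + HFD. In M, Lpl, above background on every array, was called lower under HFD (-1.47). Cidec and Car3 passed the filter through M + LFD, where they were high, and were well above background on 3 and 2 of the 4 M + HFD arrays, so the sizes of their differences are not given. In F(OVX) and in F no adipocyte marker was called by limma, out of 5 and 7 tested, and of these Lpl in F had an unadjusted p under 0.05.

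Over the 24 arrays, Thrsp and the adipocyte mean correlated with Pearson's r = 0.73 (permutation p = 0.00012) and Spearman's rho = 0.73 (p = 0.00013). Without the 2 arrays farthest from the median, r was 0.66. It was 0.79 on the slide of M (exact permutation p = 0.0208), 0.44 on that of F (exact permutation p = 0.274) and 0.87 on that of F(OVX) (exact permutation p = 0.0219). Without M + LFD replicates 1 and 2, r was 0.74 (permutation p = 0.00014). These are 5 relations of 1 family, with Benjamini-Hochberg adjusted p of 0.00035, 0.0274, 0.274, 0.0274 and 0.00035 in the same order. Spearman's rho on the slides was 0.74 in M, 0.48 in F and 0.69 in F(OVX), and its adjusted exact permutation p-values of 0.0764, 0.243 and 0.0867 did not pass 0.05. Without its 2 farthest arrays r on the slide of M was 0.60. As deviations from the group means, r was 0.60, for which no p was computed. The permutations moved values freely across groups and diets, so their p-values also take in differences between groups. The 5 relations share arrays. The defining markers differed among themselves. Adiponectin (Adipoq) followed Thrsp with r = 0.70 and resistin (Retn) with r = 0.72. They were well above background on only 13 and 14 of the 24 arrays. Cfd (0.68), Car3 (0.69) and Cidec (0.42) were so on 17, 20 and 23. Of the markers well above background on all 24 arrays, Fabp4 had r = 0.61, Lpl 0.15 and Pck1 -0.14. Plin1, which coats fat droplets, was well above background on 1 array, and leptin (Lep) had r = -0.22. M + LFD replicate 1 had Adipoq at 2.13 and Thrsp at 6.68. The part of adipocyte RNA in the Thrsp difference was not tested.

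The 250 bases before the Thrsp start site are shown because Thrsp carries the clearest diet difference among the members. The window (chr7:97417551-97417800, minus strand, GRCm38.p6, RefSeq) runs 5′ to 3′ in the direction of the gene. Capitals mark matches to the CCAAT box, CCAAT or its complement ATTGG, which is the letter pattern that NF-Y recognises.
Thrsp: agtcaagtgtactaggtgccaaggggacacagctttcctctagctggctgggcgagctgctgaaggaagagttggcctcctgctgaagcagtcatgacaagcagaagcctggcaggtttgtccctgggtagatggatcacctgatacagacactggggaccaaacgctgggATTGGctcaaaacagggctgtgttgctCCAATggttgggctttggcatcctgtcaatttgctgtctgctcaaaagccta
The matches begin at -79 and -52 from the start site. Promoters of 250 bases before to 50 after the start were available for 29 members (41 promoters) and were searched on both strands for CCAAT, for the sterol regulatory element TCACNCCAC, for the E-box CACGTG and for the GC box GGGCGG. Of these, the Thrsp window held CCAAT alone. A CCAAT match was found in 37.4% of all 32851 mouse promoters. The sterol regulatory element was found in 1.24% of all promoters, the E-box in 7.15% and the GC box in 35.7%. Among the 41 promoters of members the shares were 56.1% for CCAAT, 4.88% for the sterol regulatory element (Hmgcs1 and Mlxipl), 17.1% for the E-box and 63.4% for the GC box. Matches of different motifs overlapped in 1 place. Scd1, Scd2, Fads1, Dgat1, Dgat2, Fdps, Fdft1 and Sqle had no entry.

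In M + HFD against M + LFD, 5 of the 37 members were called DEGs, where 4.30% of 20515 genes tested were called. Thrsp, Fads1, Acacb and Me1 were lower and Acly was higher under HFD. No gene on the array reached an adjusted p under 0.05 in M, F or F(OVX) by limma, and 1250, 643 and 709 genes had an unadjusted p under 0.05. The median difference of the members was 0.05 against 0.01 over all genes, with 22 members higher and 15 lower. A count of 4 members called lower stood beside 1.80% of all genes called lower. The groups were apart for 2 members, Thrsp and Fads1, and for 2.60% of all genes.

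Fads1, the delta-5 desaturase that finishes arachidonic acid, had levels of 8.09, 7.81, 8.35 and 7.62 in M + LFD and of 6.32, 6.72, 7.18 and 7.28 in M + HFD. Every HFD array was below every LFD array. The difference was -1.09 (SE 0.25, limma p = 0.00227, adjusted p = 0.801, exact permutation p = 0.0286), and it was -1.11 without M + LFD replicates 1 and 2. Fads2, the delta-6 desaturase that works before it, differed by 0.75 (SE 0.39, exact permutation p = 0.171) and had no call. Its 2 lowest values, 8.53 and 8.74, were those of M + LFD replicates 1 and 2, and the other arrays of the slide lay between 9.51 and 10.34.

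Acacb, the acetyl-CoA carboxylase of the mitochondrial surface, whose malonyl-CoA restrains fat oxidation, was at 9.68, 10.61, 9.0 and 8.49 in M + LFD and at 7.20, 7.31, 8.64 and 8.58 in M + HFD. Replicate 4 on LFD lay below replicates 3 and 4 on HFD. The difference was -1.51 (SE 0.52, limma p = 0.0177, exact permutation p = 0.0857). Me1, the malic enzyme that yields cytosolic NADPH, was at 10.81, 10.51, 9.38 and 8.88 in M + LFD and at 8.29, 6.76, 9.25 and 8.61 in M + HFD, a difference of -1.67 (SE 0.60, p = 0.0222, exact permutation p = 0.0571). Only the value of 9.25 reached into the LFD range. Acly, which splits citrate into acetyl-CoA, was at 12.96, 12.80, 13.42 and 13.82 in M + LFD and at 14.13, 13.66, 13.61 and 14.16 in M + HFD, a difference of 0.64 (SE 0.25, p = 0.0342, exact permutation p = 0.0857). Replicate 4 on LFD lay above replicates 2 and 3 on HFD.

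These 3 calls rested on the arrays with low Hoxb13. Without M + LFD replicates 1 and 2 the difference was -0.82 for Acacb (adjusted p = 0.973), -0.90 for Me1 (adjusted p = 0.990) and 0.27 for Acly (adjusted p = 0.9996). Thrsp and Fads1 were the members that stayed called. Leaving out either of them alone ended the calls of Me1 and Acly. Without M + HFD replicate 1, Acacb and Acly lost theirs, and Acly also without M + HFD replicate 4. The part of colon position in these differences was not tested. A second Acacb probe, well above background on 14 arrays, gave -1.71 in M.

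**Figure D2:**
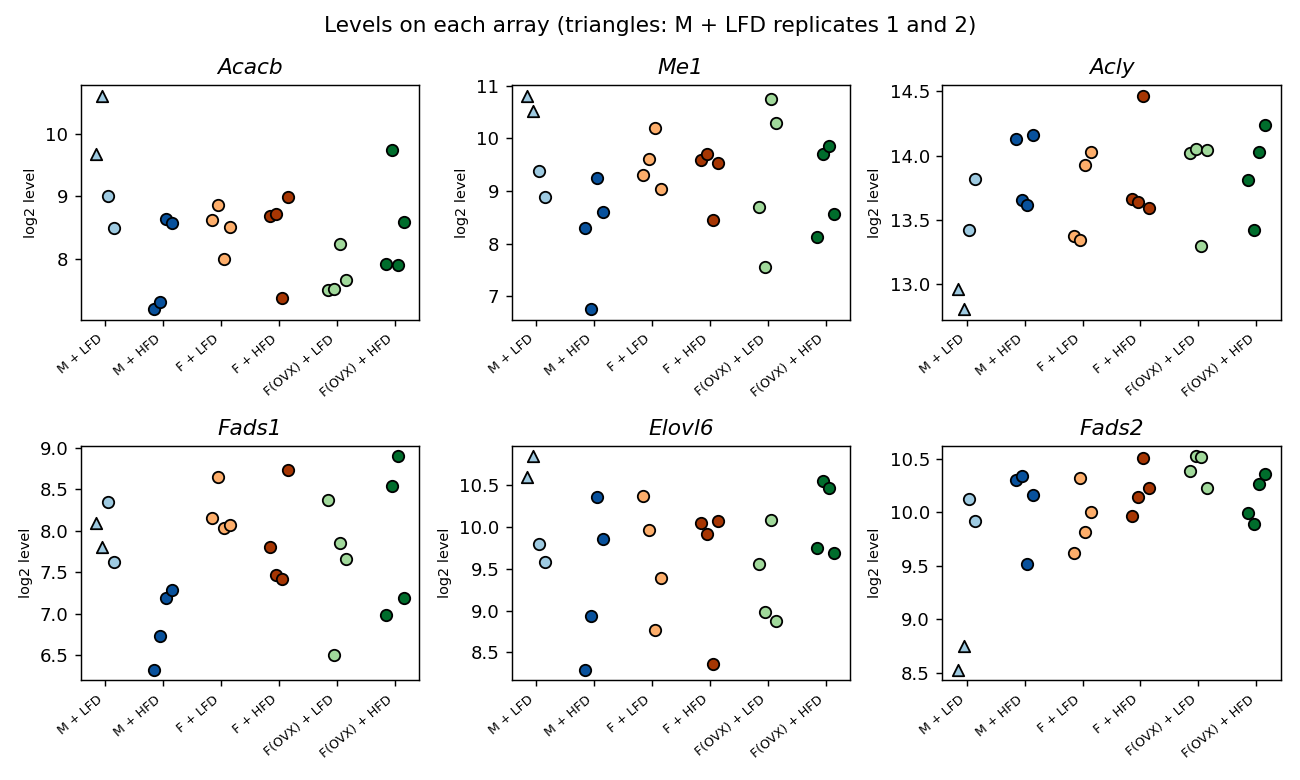
Log2 normalized levels of Acacb, Me1, Acly, Fads1, Elovl6 and Fads2 on each array, 4 points per group, with M + LFD replicates 1 and 2 as triangles and a separate y axis for each gene. The triangles are the highest M + LFD points for Acacb, Me1 and Elovl6 and the lowest for Acly and Fads2, whereas for Fads1 they lie among the other M + LFD arrays.

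The other steps of lipogenesis had no call in males. Fasn, the fatty acid synthase, differed by 0.05 (SE 0.14), Acaca, the cytosolic carboxylase that feeds it, by -0.11 (SE 0.12) and Acss2, which makes acetyl-CoA from acetate, by 0.46 (SE 0.24). Of the desaturases that make monounsaturated fat, Scd1 differed by -0.42 (SE 0.41) and Scd2 by 0.73 (SE 0.43). The elongases gave 0.14 for Elovl1 (SE 0.14), -0.17 for Elovl5 (SE 0.20) and -0.85 for Elovl6 (SE 0.48). None of these 8 was called, and their adjusted p-values ran from 0.825 to 0.983. In triglyceride assembly, the 5 members Gpam, Agpat2, Dgat1, Dgat2 and Lpin1 lay between -0.42 and 0.07 with no call. Among the regulators, Srebf1, Srebf2, Scap, Mlxipl (the carbohydrate-sensing factor ChREBP), Nr1h3 (the oxysterol receptor LXR alpha), Insig1 and Insig2 had no call in M, and their adjusted p-values ran from 0.885 for Nr1h3 to 0.993 for Scap. The 11 cholesterol synthesis members lay between -0.26 for Lss and 0.20 for Fdft1, a median of 0.12, with 8 higher and none called.

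In F + HFD against F + LFD, none of the 37 members was called a DEG by limma, where 1.20% of 22085 genes were called. Lss, which closes squalene epoxide into lanosterol, and Cyp51, which demethylates lanosterol, had unadjusted p under 0.05, where 2.91% of all genes did. Lss was at 9.87, 10.16, 9.40 and 10.23 in F + LFD and at 10.25, 10.45, 10.63 and 10.39 in F + HFD, a difference of 0.52 (SE 0.20, p = 0.0313, adjusted p = 0.991, exact permutation p = 0.0286). Cyp51 differed by 0.50 (SE 0.19, exact permutation p = 0.0571). Gpam, which starts glycerolipid synthesis, was at 10.05, 9.98, 10.28 and 10.17 on LFD and at 10.33, 10.38, 10.68 and 10.31 on HFD (difference 0.31, limma p = 0.0506, exact permutation p = 0.0286). Gpam and Lss were the members whose groups did not overlap, as did those of 1.90% of all genes. Of the 11 cholesterol synthesis members, 10 had a higher mean on HFD, with a median of 0.26 against a median close to 0 over all genes. The methods' t-test called none of the members either, while the mean over all probes of a gene called Acly and Cyp51. No member was called in F with the replicate number as a block either.

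In F(OVX) + HFD against F(OVX) + LFD, 3 members were called, where 2.19% of 19211 genes were. Besides Thrsp, Hmgcs1 and Elovl6 were higher under HFD. Hmgcs1, the synthase that makes HMG-CoA, was at 14.03, 13.78, 12.95 and 13.88 on LFD and at 14.09, 14.36, 14.82 and 14.04 on HFD. The groups were apart only narrowly, by LFD replicate 1 and HFD replicate 4, and 2.30% of all genes did not overlap. The difference was 0.67 (SE 0.27, limma p = 0.0365, adjusted p = 0.9996, exact permutation p = 0.0286). Without the dim LFD replicate 3 it was 0.43 and no longer called, and the call was also lost without LFD replicate 2, HFD replicate 2 or HFD replicate 3 and by the methods' t-test (adjusted p = 0.999). Elovl6, which takes palmitate to stearate, was at 9.56, 8.98, 10.09 and 8.88 on LFD and at 9.75, 10.55, 10.47 and 9.69 on HFD. The groups overlapped through LFD replicate 3. The difference was 0.74 (SE 0.32, p = 0.0461, exact permutation p = 0.114), and 5 of the 8 arrays, left out singly, ended the call.

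Insig1, itself a target of the SREBP factors, differed by 0.57 in F(OVX) (SE 0.19, exact permutation p = 0.0571), just under the fold threshold. Its levels were 7.53, 7.66, 7.34 and 7.31 on LFD and 8.09, 8.16, 8.29 and 7.55 on HFD, apart except for HFD replicate 4. Of the 11 cholesterol synthesis members 9 were higher on HFD, with a median of 0.25 against 0.01 over all genes, and of the 37 members 27 were higher, with a median of 0.18. Smooth muscle markers were higher in the same comparison, with 4 of 6 called (Des 1.25, Cnn1 1.12, Actg2 0.92 and Tagln 0.72) and a range of their mean level of 11.49 to 12.85 on LFD and 12.78 to 14.09 on HFD. Their part in the members' values was not tested.

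Averaged over the 3 slides, no member was called for diet by limma, where 0.773% of 22383 genes were called. Thrsp had the 1 unadjusted p under 0.05 among the members, where 4.21% of all genes did. With normexp correction Me1 was called, and with Hoxb13 as a covariate or without M + LFD replicates 1 and 2 Thrsp was.

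**Figure D3:**
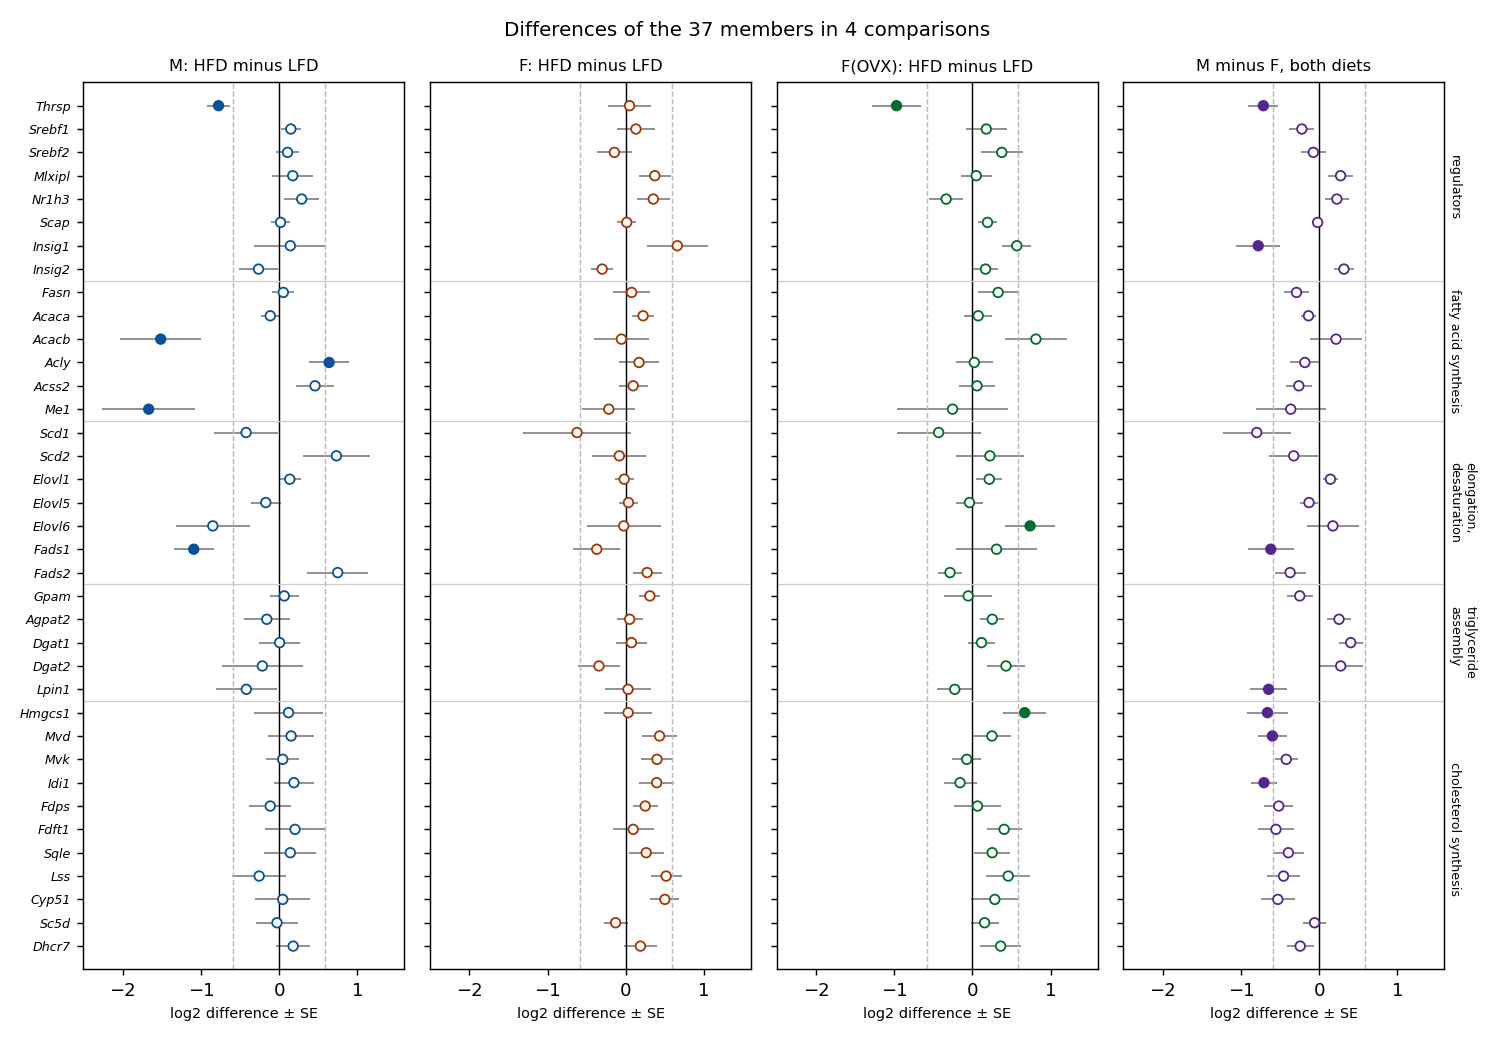
Differences of the 37 members on the log2 scale with their SE, in rows by role and in 4 panels for the diet in M, F and F(OVX) and for M minus F over both diets. Filled points were called and dashed lines mark a fold change of 1.5. Thrsp is filled in all panels but F, and the cholesterol synthesis members all lie to the left of 0 in the last panel.

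The diet effects were compared between slides. Between M and F, 2 members were called, Thrsp (above) and Acacb, where 2.95% of 22365 genes were. Between M and F(OVX) 4 were called, where 6.32% of 20764 genes were. The effect was lower in M for Acacb (-2.32, SE 0.66, adjusted p = 0.530), Elovl6 (-1.58, SE 0.66, adjusted p = 0.577) and Fads1 (-1.40, SE 0.59, adjusted p = 0.579), and higher for Fads2 (1.04, SE 0.40, adjusted p = 0.538). Without M + LFD replicates 1 and 2, Acacb remained called (-1.63), while Elovl6 (-1.07), Fads1 (-1.42) and Fads2 (0.34) did not. Between M and F, Acacb went from -1.46 (SE 0.67, adjusted p = 0.975) to -0.76 without these arrays, and its call was lost. The second Acacb probe gave -0.82 in F(OVX), where the brightest gave 0.81, so the probes disagree on that slide. Between F(OVX) and F, Thrsp and Nr1h3 (-0.69, SE 0.31, adjusted p = 0.9998) were called lower, where 0.755% of 22133 genes were called lower. The call of Nr1h3 was lost in 8 of the 24 fits that left out 1 array and with the mean over its probes (-0.58). Over all 24 such fits its difference ranged from -0.80 to -0.53.

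Genes of cholesterol synthesis had lower levels in males than in females. Averaged over the diets, all 11 members of the pathway had a lower mean in M than in F, with a median of -0.52 against -0.01 over all genes, and 8 had an unadjusted limma p under 0.05, as did 18.0% of all genes. Of all 37 members 28 were lower, and 7 were called, all lower in M, where 5.56% of 22365 genes were called in either direction and 2.74% called lower. They were Idi1, Hmgcs1 and Mvd of cholesterol synthesis, Insig1, Thrsp, Fads1 and Lpin1. Idi1, the isomerase of isopentenyl diphosphate, was the member with an adjusted p under 0.05, as were 2.60% of all genes. Its levels in M were 10.95, 11.32, 11.58 and 11.57 on LFD and 10.87, 11.66, 11.67 and 11.97 on HFD, and in F 11.57, 11.95, 11.76 and 12.54 on LFD and 12.11, 12.53, 12.57 and 12.19 on HFD. The sexes overlapped between 11.57 and 11.97, and 4 arrays of M lay below every array of F. The difference was -0.71 (SE 0.17, adjusted p = 0.0294). The adjusted limma p of Idi1 was 0.0563 with scaling to the 75th percentile, 0.0534 with no filter and 0.142 with Hoxb13 as a covariate. It was 0.0183 with normexp correction, 0.0103 with the replicate number as a block and 0.0341 with the mean over probes. With only genes well above background on all 24 arrays it was 0.0234.

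The remaining members of the pathway followed the same direction. Mvd, which forms isopentenyl diphosphate, differed by -0.60 (SE 0.19, adjusted p = 0.0987), Hmgcs1 by -0.66 (SE 0.27, adjusted p = 0.194), and Mvk, the mevalonate kinase, by -0.42 (SE 0.14, adjusted p = 0.127). Fdps, which makes farnesyl diphosphate, differed by -0.52 (SE 0.19), Fdft1, which joins it into squalene, by -0.55 (SE 0.23), Cyp51 by -0.53 (SE 0.22) and Lss by -0.46 (SE 0.21), each with an unadjusted p under 0.05 and below the fold threshold. Sqle, the squalene epoxidase, had -0.39 (SE 0.20), Dhcr7, which completes cholesterol, -0.24 (SE 0.17) and Sc5d, the sterol desaturase before it, -0.06 (SE 0.15), and these did not pass an unadjusted p of 0.05. The mean level of the 11 genes ranged from 10.70 to 11.87 (median 11.45) on the 8 arrays of M, from 11.57 to 12.20 (median 11.86) on those of F and from 11.38 to 12.34 (median 11.74) on those of F(OVX). In F(OVX) against F, 9 of the 11 were lower with a median of -0.13 and none was called.

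Outside the pathway, the SREBP-controlled gatekeeper Insig1 was lower in M by a difference of -0.78 (adjusted p = 0.144), Lpin1, a phosphatidate phosphatase, by -0.65 (adjusted p = 0.149), Thrsp by -0.71 (adjusted p = 0.0502) and Fads1 by -0.62 (adjusted p = 0.274). The call of Fads1 was lost in 13 of the 24 fits that left out 1 array, which over all 24 gave -0.69 to -0.47. It was also lost with the replicate number as a block, with no filter, with the mean over its probes (-0.49) and with normexp correction (-0.47). Left out singly, 5 arrays ended the call of Mvd, 4 that of Hmgcs1 and 3 that of Lpin1, and none ended that of Idi1, Insig1 or Thrsp. With the mean over its probes in place of the brightest, Lpin1 had a difference of -0.083 (adjusted p = 0.809). The factor genes themselves were closer, at -0.22 for Srebf1 (SE 0.16), -0.07 for Srebf2 (SE 0.16) and -0.02 for Scap (SE 0.07), with no call. Insig2 (0.32, SE 0.13) and Dgat1 (0.40, SE 0.16), the last step to triglyceride, had an unadjusted p under 0.05 with a higher mean in M, without reaching the fold threshold. In F(OVX) against F, limma called no member, where 2.06% of genes were called. Lpin1 was the 1 member with an unadjusted p under 0.05 (-0.55, SE 0.23, adjusted p = 0.784), where 6.16% of genes had one.

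Without M + LFD replicates 1 and 2, 5 members were called between M and F (Idi1, Hmgcs1, Insig1, Lpin1 and Thrsp), none had an adjusted p under 0.05, and all 11 cholesterol genes were lower with a median of -0.44. With normexp correction Idi1 and Hmgcs1 were called and the median was -0.50. The 5.56% of all genes called is that of the main fit, and the share in each of these fits is not given here. The difference between the sexes is also one between slides, and these cannot be told apart. Markers of other cell types moved with it. All 6 smooth muscle markers (median -0.44) and all 5 B and plasma cell markers (median -1.49) were lower in M and none of them was called, all 7 epithelial markers were higher (median 0.17), and of 7 adipocyte markers tested Cfd and Car3 were called lower. Both passed the filter through groups where they were high. Cfd was well above background on 3 arrays of M + LFD and 1 of M + HFD, and Car3 on 4 and 2, against all 8 of F for both, so the sizes of these differences are not given. The part of these cell types in the result was not tested.

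**Figure D4:**
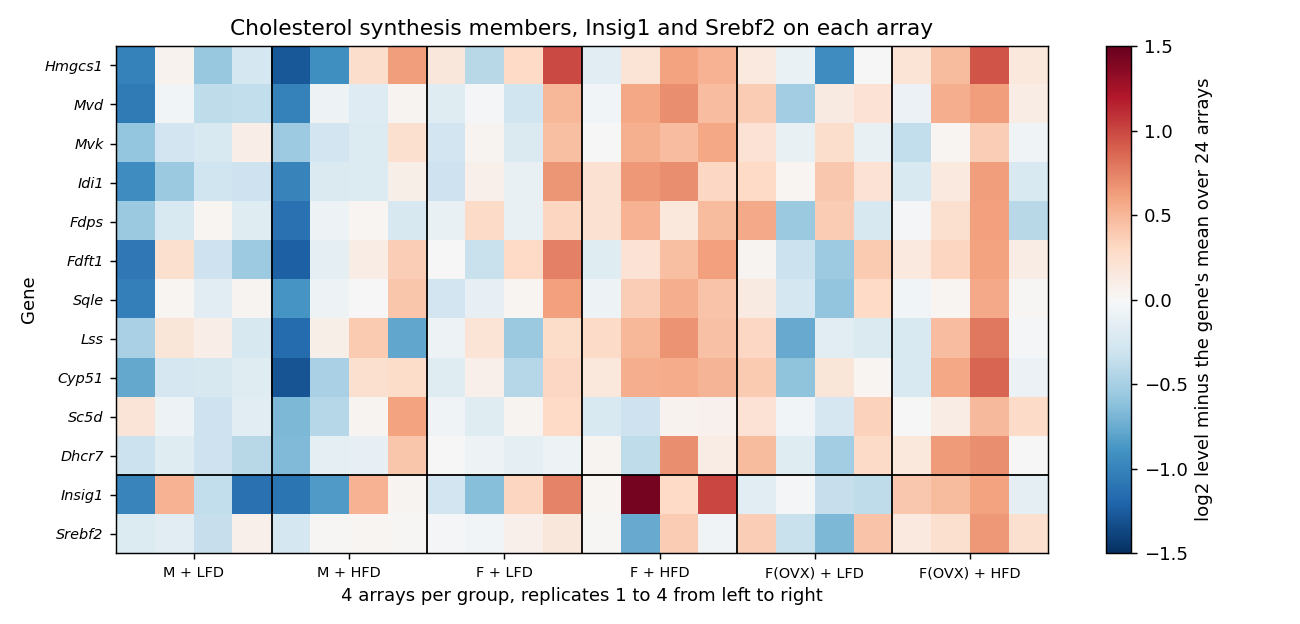
Log2 level minus the mean of that gene over the 24 arrays, for the 11 cholesterol synthesis members, Insig1 and Srebf2 in rows and for each array in columns, 4 per group from replicate 1 to 4. Blue is below and red above the gene's mean. M + LFD replicate 1 and M + HFD replicate 1 are blue in nearly all rows, and F + HFD replicates 2 to 4 and F(OVX) + HFD replicate 3 are mostly red.

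The promoters of called members of the sterol pathway are shown with their motif matches, because these genes moved together between the sexes. Capitals mark the sterol regulatory element, the E-box and CCAAT. GC boxes are left in lower case. The windows are the 250 bases before the start site on GRCm38.p6 (RefSeq), 5′ to 3′ in the direction of the gene: Hmgcs1 at chr13:119690101-119690350 (plus strand), Idi1 at chr13:8885356-8885605 (plus), Mvd at chr8:122443423-122443672 (minus) and Insig1 at chr5:28071162-28071411 (plus).
Hmgcs1: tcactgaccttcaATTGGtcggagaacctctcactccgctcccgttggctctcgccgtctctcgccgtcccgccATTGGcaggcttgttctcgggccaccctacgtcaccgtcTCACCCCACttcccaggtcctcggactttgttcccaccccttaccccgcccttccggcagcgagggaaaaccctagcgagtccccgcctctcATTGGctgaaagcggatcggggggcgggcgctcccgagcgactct
Idi1: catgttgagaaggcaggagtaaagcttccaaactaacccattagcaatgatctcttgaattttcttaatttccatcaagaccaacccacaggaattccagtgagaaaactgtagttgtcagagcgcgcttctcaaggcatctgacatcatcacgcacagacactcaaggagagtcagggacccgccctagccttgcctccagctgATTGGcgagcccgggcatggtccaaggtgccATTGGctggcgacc
Mvd: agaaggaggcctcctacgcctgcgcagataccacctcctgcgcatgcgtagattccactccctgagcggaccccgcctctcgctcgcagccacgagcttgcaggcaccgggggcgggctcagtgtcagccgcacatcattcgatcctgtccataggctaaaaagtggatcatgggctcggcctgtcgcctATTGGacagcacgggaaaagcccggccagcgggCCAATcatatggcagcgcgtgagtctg
Insig1: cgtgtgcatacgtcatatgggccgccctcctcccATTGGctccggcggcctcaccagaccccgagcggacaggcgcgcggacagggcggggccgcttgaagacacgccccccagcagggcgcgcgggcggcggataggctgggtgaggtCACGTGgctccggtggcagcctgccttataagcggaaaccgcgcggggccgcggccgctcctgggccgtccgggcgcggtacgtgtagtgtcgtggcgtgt
Hmgcs1 held a sterol regulatory element at -137 and Insig1 an E-box at -101. A CCAAT match was found in the promoter window of all 8 cholesterol synthesis members that had an entry, where 41.1% of all genes had one, and so was a GC box, where 38.2% of all genes had one. These are matches of letters and not measured sites.

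The members also differed in how they varied from mouse to mouse. Within groups, the median SD of all 37 members was 0.379 on the log2 scale. It was 0.297 over the 16830 genes well above background on all 24 arrays, a filter that Lpin1 among the members does not pass. As deviations from the group means over 24 arrays, the cholesterol synthesis members varied together, with a median Pearson's r of 0.64 over 55 pairs, 39 of them above 0.5 and none below 0.16. Over all 666 pairs of members the median was 0.17. The pairs share the arrays and their normalization, so the values are a description. Within slides the median Pearson's r of the cholesterol pairs was 0.76 in M, 0.59 in F and 0.63 in F(OVX). Median r was 0.66 without M + LFD replicates 1 and 2, 0.72 without the dim arrays, and 0.54 without replicate 1 of M + LFD and of M + HFD, the arrays lowest in the pathway. The median Spearman's rho was 0.61 over all arrays, 0.57 in M, 0.62 in F and 0.64 in F(OVX), and 0.65, 0.66 and 0.58 without the same sets of arrays.

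The closest pair was Fdft1 and Sqle (r = 0.91), consecutive enzymes of squalene synthesis and oxidation, followed by Agpat2 and Dgat2 of triglyceride assembly (0.89). Hmgcs1 and Fdft1 had 0.88, and Mvd and Cyp51 0.87. In fatty acid synthesis Acly went with Scd2 (0.86) and Acss2 (0.78), and Fasn with Srebf1 (0.85) and Srebf2 (0.84). Acacb went with Elovl6 (0.79) and against Mlxipl (-0.77), and Fads2 went against Dgat2 (-0.80). Thrsp had no close partner in the module, its highest r being 0.58 with Fdps. Insig1 was nearest to Fdft1 (0.71). The genes of fatty acid synthesis had a median r of -0.26 over 15 pairs and did not move as 1 block. Fasn, Acaca, Acly and Acss2 were positive with each other (0.29 to 0.78), as were Acacb and Me1 (0.57). Pairs of Acacb or Me1 with the former genes were all negative (-0.71 to -0.26). All these values are of the brightest probes. Further probes well above background on all 24 arrays correlated with the brightest at a median r of 0.75 (0.18 to 0.94). The second probe of Mlxipl had 0.18, that of Lss 0.22 and that of Acly 0.30. The second Acacb probe, well above background on 14 arrays, had 0.34.

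**Figure D5:**
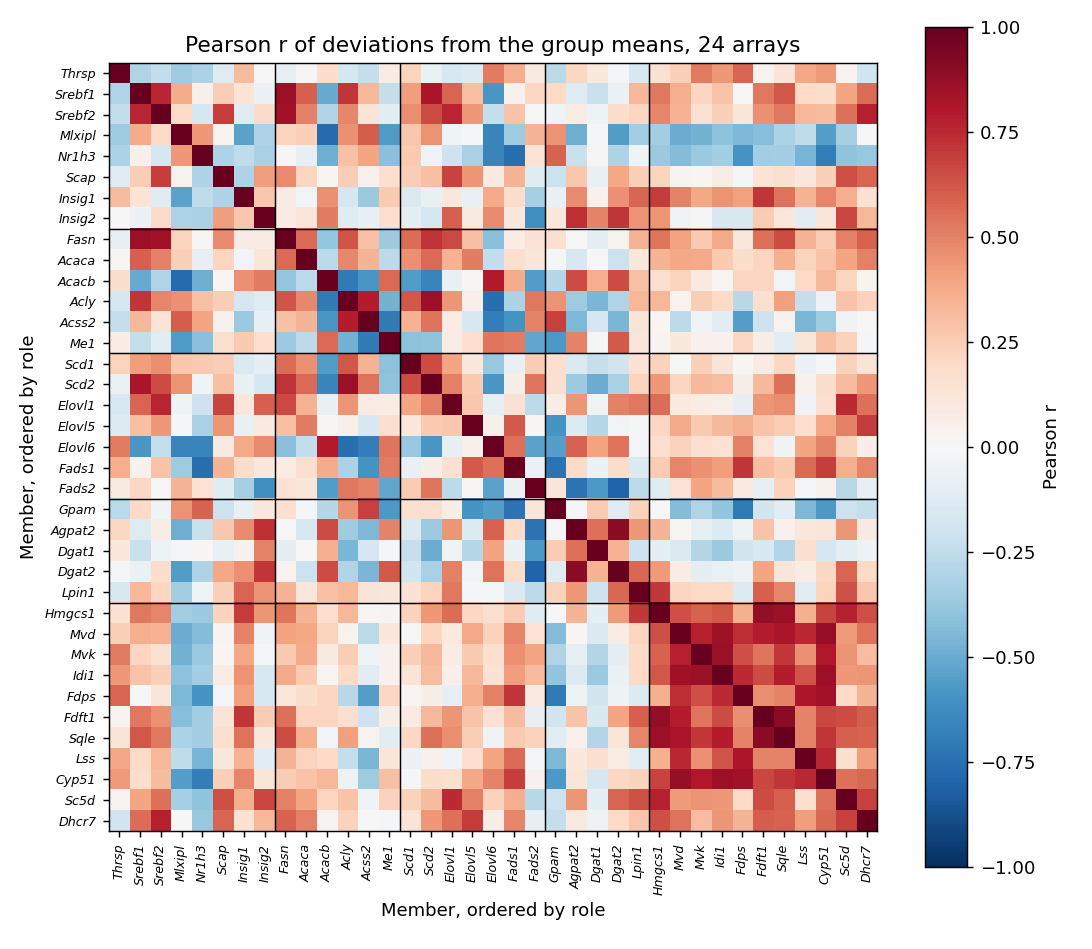
Pearson's r between all pairs of the 37 members over 24 arrays, as deviations from the group means, with rows and columns ordered by role and black lines between roles. The block of the 11 cholesterol synthesis members at the lower right is positive throughout (0.16 to 0.91), whereas the other roles mix positive and negative values.

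Beyond the 37 members, 65 other genes of the pathways were listed, of which 59 could be tested. In M, 1 was called, where 4.30% of all genes were. It was Mogat2, which joins fatty acids to monoglycerides in the gut (-1.65, SE 0.70, exact permutation p = 0.143). Its levels were 9.80, 9.92, 7.80 and 7.55 in M + LFD and 5.90, 6.66, 8.31 and 7.60 in M + HFD. The high LFD values were those of replicates 1 and 2, and no gene of this list was called without them. In F none was called by limma or by the methods' t-test, and none had an unadjusted p under 0.05. In F(OVX), 2 were called higher under HFD, where 2.19% of all genes were called in either direction. Mogat2 was one of them, with 7.56, 6.45, 7.40 and 7.31 on LFD and 7.57, 9.06, 8.45 and 8.20 on HFD (1.14, SE 0.34, exact permutation p = 0.0286), and the groups did not overlap. Between M and F(OVX), the diet effect differed by a call for 5 of the 59, or 8.47%, near the 6.32% of all genes. It was lower in M for Mogat2 (-2.80, SE 0.82, adjusted p = 0.530), for Gpat3, which starts glycerolipid synthesis (-3.61, SE 1.37), and for Lpin2, a phosphatidate phosphatase (-1.505, SE 0.56), whose highest levels of the 24 arrays were 11.94 and 11.83 on M + LFD replicates 1 and 2. It was higher in M for Abcg5 (3.36, SE 1.56) and Abcg8 (1.58, SE 0.70), which together pump sterols out of the cell. Between M and F the diet effect on Mogat2 alone was called (-1.93, SE 0.82, adjusted p = 0.975), where 2.95% of all genes were. For the levels in M against F, 2 of the 59 were called, where 5.56% of all genes were. One was Acsl3, which activates fatty acids and was higher in M (0.66, SE 0.27, adjusted p = 0.209). Of 20 further cholesterol genes 15 were lower in M, with a median of -0.27.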

How the data were processed

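Colon RNA of 24 mice was hybridized to Agilent 1-color mouse arrays, 1 mouse per array. The methods give 5 animals per group for the arrays and the sample labels 4, and the 4 labelled per group were analyzed. The labels gave each mouse's sex, surgery, diet and replicate number. The authors extracted the spots with Agilent Feature Extraction 11.0.1.1, and the intensity deposited for each spot is linear, with background subtracted and no normalization between arrays. Each array had 62976 spots, and between 43.1% and 63.6% of the spots were well above background. The number of arrays limits the precision.

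The deposited intensity was turned to log2 and quantile-normalized over the 24 arrays, without control and outlier spots. Of 56605 probes, 32994 (58.3%) were given a symbol by matching their accession to a RefSeq gene table of GRCm38.p6. The array's own coordinates are on another build and were not used here. A gene was tested when, in one group or the other, all 4 arrays had its brightest probe well above background. Tests were those of limma 3.58.1 (R 4.3.3; lmFit, then eBayes), on 8 arrays for each diet comparison and on all 24 for contrasts between slides, with the thresholds of the study (fold change 1.5, unadjusted p under 0.05) and Benjamini-Hochberg adjusted p-values. Exact permutations covered 70 assignments of the diets, two-sided, and correlations over more arrays 100000 resamples. The fits were tested on simulated data. Promoters were searched with Python 3.11.15.

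The members and lists were chosen with earlier results of these data known. All members are accounted for by role. Thrsp, members called in any comparison, members whose groups did not overlap and other pathway genes called for diet are given with values, apart from those not reported here. The other pathway genes were 30 of fatty acid and triglyceride metabolism, 22 of cholesterol and 13 regulators. Some results of these genes are not reported here. Marker lists covered adipocytes, epithelium, goblet cells, absorptive colonocytes, smooth muscle, myeloid cells, B and plasma cells, hepatocytes and distal position.

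The replicate number is the column on the slide. Deviations from group means correlated between same-numbered arrays of F with r = 0.28, 0.45, 0.58 and 0.26. In M r was 0.01, -0.26, 0.00 and -0.03, and in F(OVX) 0.33, -0.09, 0.32 and 0.25. Arrays of different numbers were not set against each other, so these values cannot show whether the numbers pair the arrays. Alternatives were another scaling, background correction, filter, probe rule, replicate block, Hoxb13 as a covariate, the methods' t-test, 1 fit of all arrays, and leaving out arrays.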

Additional observations from a re-analysis of the deposited data

Results flagged for a closer look

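In 15 of 222 sets of 4 arrays, 1 array lay far from the other 3 of its group, where chance alone gives about 1 in 20 sets, or 11.1. No explanation was tested. F + HFD replicate 3 stood apart for 3 members of fatty acid synthesis and elongation, high for Acly (14.47, others 13.59 to 13.66) and low for Me1 (8.44, others 9.53 to 9.71) and Elovl6 (8.36, others 9.92 to 10.07). Scd1 was low on F + HFD replicate 2 (7.09) and F(OVX) + HFD replicate 2 (7.36), and Dgat2 was low on F + LFD replicate 2 (12.00) and high on F(OVX) + LFD replicate 4 (13.11). Acly was low on the dim F(OVX) + LFD replicate 3 (13.29). Of the sterol genes, Cyp51 was low on M + LFD replicate 1 (10.27) and F + HFD replicate 1 (11.19), Sqle was high on F(OVX) + HFD replicate 3 (13.09) and Srebf2 was low on M + HFD replicate 1 (9.43). Elovl1 was low on M + LFD replicate 3 (13.55), Dgat1 low on M + HFD replicate 4 (8.94) and Lpin1 high on M + LFD replicate 2 (6.95).

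The diet effect of 6 members differed between slides by a tested contrast with an unadjusted limma p under 0.05 and a fold of at least 1.5. M was set against F for Thrsp (-0.82) and Acacb (-1.46), and against F(OVX) for Acacb (-2.32), Elovl6 (-1.58), Fads1 (-1.40) and Fads2 (1.04). F(OVX) was set against F for Thrsp (-1.02) and Nr1h3 (-0.69). None had an adjusted p under 0.05.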

How the results depend on the processing

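Thrsp kept its direction and its call in M and F(OVX) under the alternatives run for those comparisons, except that normexp background correction brought M to -0.43, under the fold threshold. With arrays left out singly it ranged from -0.87 to -0.70 in M and from -1.23 to -0.84 in F(OVX), and in F, where it was not called, from -0.079 to 0.28. Its sign changed there when replicate 3 of F + LFD was left out (-0.079), and when replicate 1 (-0.033) or replicate 2 (-0.072) of F + HFD was.

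With arrays left out singly, the number of members called for diet ranged from 3 to 7 in M, 0 to 4 in F, 1 to 4 in F(OVX) and 0 to 2 for the averaged effect. It ranged from 0 to 3 between M and F, 2 to 6 between M and F(OVX) and 1 to 4 between F(OVX) and F. For the levels it was 3 to 9 in M against F and 0 to 1 in F(OVX) against F, and for the other pathway genes 0 to 5 in M, 0 to 2 in F and 1 to 4 in F(OVX). In M against F, 3 were called without M + HFD replicate 1 or without F + LFD replicate 4. Without M + LFD replicate 1 or M + HFD replicate 2, 4 were called. The share of all genes called in each fit of this section is not given here. A changed count of members can thus not be told apart from a change over all genes.

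Without M + LFD replicates 1 and 2, members called fell to 2 in M, 0 between M and F and 1 between M and F(OVX), and 1 was called for the averaged effect. With Hoxb13 as a covariate these were 2, 0, 0 and 1, with 1 in F(OVX). Other pathway genes called became 0 in M under both, and 1 in F and 1 in F(OVX) under the covariate. The methods' t-test called 3 members in M and 1 in F(OVX), and 0 and 1 other genes. One fit of all 24 arrays called 1 member in F(OVX), and of the other genes 4 in M, 1 in F and 0 in F(OVX). Normexp called 1 member for the averaged effect, 1 between M and F and 2 in M against F. The mean over probes called 2 members in F, and 4 other genes in M and 1 in F(OVX). Without a filter 1 other gene was called in F(OVX). The causes were not tested.

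With the replicate number as a block, 3 members were called in M, 0 in F, 2 in F(OVX) and 1 between M and F, and of the other pathway genes 2 in M, 1 in F and 4 in F(OVX). In F the block changed no call of a member, and whether the numbers pair the arrays was not tested.

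Signal over background limits Lpin1, which is dim on 2 arrays, and the 2 dim arrays. With 4 arrays per group no exact permutation can go below 0.0286.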
